A study of Mus musculus with 8 samples.

Results

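The Polycomb repressive complexes keep developmental genes silent. Polycomb repressive complex 2 (PRC2) methylates histone H3, and Polycomb repressive complex 1 (PRC1) attaches ubiquitin to histone H2A. In embryonic stem cells both complexes sit at the promoters of lineage genes that are not yet in use. The 7 genes described here were chosen by name, with earlier results of these data known. Ezh2, Eed and Suz12 encode the PRC2 core, Jarid2 and Mtf2 encode PRC2 accessory proteins, and Rnf2 and Ring1 encode the RING-type ubiquitin ligases of PRC1. All 7 had values among the 16456 transcripts of the poly(A) table, and 6 of them among the 7820 transcripts of the CLIP table and the 7936 of the ribosome footprint table. For Ring1 the CLIP and footprint readouts were not analysed here.

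The samples came from the A3-1 mouse embryonic stem cell line, kept in serum with LIF. LIN28A binds RNA in pluripotent cells and is best known for blocking let-7 maturation. RNA crosslinked to it by UV light was immunoprecipitated and sequenced (CLIP-seq), without siRNA, using 3 anti-LIN28A antibodies, 1 library each: the in-house monoclonals 35L33G and 2J3, and a polyclonal from Abcam. Poly(A) RNA was sequenced from untreated cells and from cells treated for 48 h with siRNA against luciferase (siLuc) or against Lin28a (siLin28a). Ribosome footprints, the fragments protected by translating ribosomes, were sequenced for siLuc and siLin28a. There was 1 library per condition, so the siRNA comparisons have no replicate check and carry no p-value, and the series holds no control CLIP library.

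Totals per library ran from 7698479 to 8027670 CLIP exon counts, from 7475174 to 9605641 poly(A) counts, and were 7570209 and 5980673 footprint counts. The 10 embryonic stem cell markers examined stood at 45.9 to 874 RPKM (counts scaled by exon length and library total) in untreated cells. Of 10 lineage markers 8 were below 1 RPKM, and of 5 fibroblast markers measured 3 were, while Vim stood at 83.5 RPKM. Summed over each list, RPKM in untreated, siLuc and siLin28a cells was 3179, 3222 and 4053 for the stem cell markers, 98.1, 157 and 164 for the fibroblast markers, and 27.9, 29.2 and 36.7 for the lineage markers. The fibroblast and lineage sums rest mostly on Vim, at 83.5 RPKM, and Tubb3, at 24.4 RPKM, in untreated cells. Thy1, a fibroblast marker at 13.9 RPKM, was at −1.13 on the log2 scale for siLin28a over siLuc. The part of these markers in the results below was not tested.

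The siRNA against Lin28a is the reagent behind every siRNA comparison here, so its duplex is shown, 5′ to 3′ without the dTdT overhangs. Capitals mark bases 2 to 8 of each strand, the seed positions through which an siRNA strand can also pair with other mRNAs. The 2 strands of 19 bases are reverse complements of each other.
siLin28a strand 1: aUGUUCUUcccuuuuggcc
siLin28a strand 2: gGCCAAAAgggaagaacau
Lin28a mRNA (NM_145833) had 4304 poly(A) counts untreated, 2646 with siLuc and 1135 with siLin28a, which left 33.4% of the siLuc level. Its footprints fell to 25.7% of siLuc, from 898 to 182 counts.

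The mRNA levels were read first, per kilobase, since the transcripts differ in length. Eed (NM_021876; mm9 chromosome 7, 97103164 to 97129486) encodes the subunit that reads the PRC2 mark and stimulates the enzyme. It had 2627 counts untreated, 2364 with siLuc and 3022 with siLin28a, or 138, 154 and 153 RPKM. Suz12 (NM_199196; chromosome 11, 79806608 to 79847625), the scaffold of PRC2, stood at 127 RPKM untreated, 165 with siLuc and 136 with siLin28a, from 5165, 5384 and 5714 counts. Jarid2 (NM_021878; chromosome 13, 44826272 to 45016346), a Jumonji-family protein without demethylase activity that joins PRC2, was at 129, 120 and 135 RPKM from 5861, 4408 and 6390 counts. These 3 transcripts were the most abundant of the 7 in every library, at 120 to 165 RPKM.

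Mtf2 (NM_013827; chromosome 5, 108494761 to 108538021), a Polycomb-like protein that tethers PRC2 to CpG-rich DNA, was at 82.6, 98.3 and 79.6 RPKM from 3107, 2981 and 3104 counts. Rnf2 (NM_011277; chromosome 1, 153316536 to 153347953), the gene for RING1B, was at 67.0, 86.2 and 94.1 RPKM from 1881, 1950 and 2737 counts. Ezh2 (NM_007971; chromosome 6, 47480273 to 47545029), the methyltransferase subunit, was lower than these at 41.1, 53.2 and 35.6 RPKM from 1011, 1055 and 908 counts. Ring1 (NM_009066; chromosome 17, 34157737 to 34161625), the paralog of Rnf2 that encodes RING1A, had only 127, 78 and 125 counts, or 6.74, 5.13 and 6.40 RPKM. In untreated cells Jarid2 (95% Poisson interval 125 to 132) and Suz12 (124 to 131) had overlapping intervals, and both lay below that of Eed (132 to 143). Each step below them, from Suz12 to Mtf2, Rnf2, Ezh2 and Ring1, was larger than the counting intervals. With siLin28a, Rnf2 stood above Mtf2. These intervals cover counting error only, and each level is that of 1 RefSeq transcript, so other isoforms were not counted apart.

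**Figure D1:**
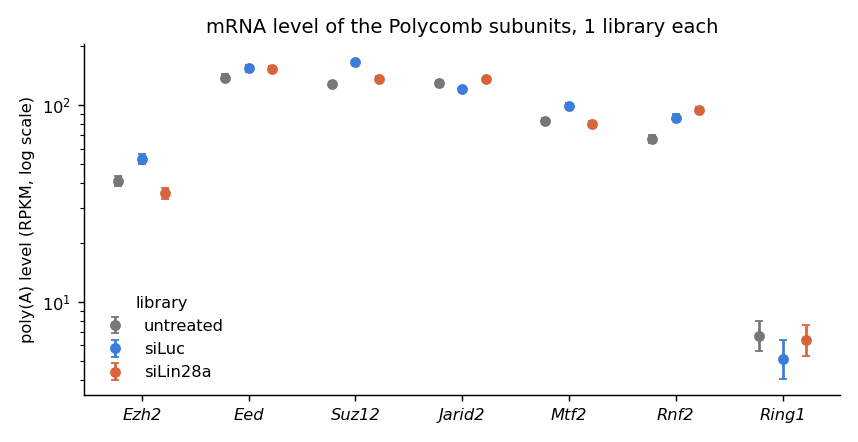
Poly(A) level of the 7 genes in RPKM on a log axis, 1 point per library (untreated, siLuc, siLin28a) with 95% Poisson counting intervals. Eed, Suz12 and Jarid2 sit at 120 to 165 RPKM in all 3 libraries and Ring1 at 5.13 to 6.74.

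CLIP was then compared with untreated poly(A) RNA, which asks whether the transcripts are over-represented among RNA crosslinked to LIN28A. All 6 measured transcripts were enriched, by 1.33-fold (Eed) to 3.08-fold (Jarid2), with none depleted. Over all 7820 transcripts 34.6% were enriched and 33.3% depleted (edgeR quasi-likelihood test, Benjamini-Hochberg adjusted p under 0.05), and the median transcript lay at −0.03 on the log2 scale. Of all calls 50.9% were enriched, against 35.5% when libraries were scaled by total counts. The median of the 6 was 1.13. Values below are means ± SD of log2 enrichment over the 3 antibodies, which supply the whole spread. Nothing in the labels says that these libraries came from separate cultures, so the p-values reflect library-to-library spread alone, possibly technical, and assume that the single input varies like them.

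In the PRC2 core, Ezh2 had 962, 1034 and 1050 CLIP counts with 35L33G, 2J3 and the polyclonal, against 1011 counts in the untreated input. That gave log2 enrichments of 0.50, 0.58 and 0.58, mean 0.55 ± 0.05 (SD, n = 3; edgeR adjusted p = 0.00212). Eed had 2231, 2363 and 2562 CLIP counts against 2627, with enrichments of 0.33, 0.40 and 0.49, mean 0.41 ± 0.08 (SD, n = 3; edgeR adjusted p = 0.0017). Both stood above 0 with every antibody by small margins. Both calls depend on the scaling: by total counts, which move the median transcript to −0.38, Ezh2 was at 0.19 (edgeR adjusted p = 0.244) and Eed at 0.04 (edgeR adjusted p = 0.724). With siLuc poly(A) as the input, Ezh2 was at 0.20 (edgeR adjusted p = 0.222) and Eed at 0.26 (edgeR adjusted p = 0.03).

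Suz12, the third core subunit, stood well above them. It had 8255, 8379 and 9135 CLIP counts against 5165 input counts, and its enrichments of 1.24, 1.25 and 1.35 averaged 1.28 ± 0.06 (SD, n = 3; edgeR adjusted p = 9.2e-12). The lowest antibody value of Suz12 lay above the highest of Ezh2 and of Eed.

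The accessory subunits were enriched more than Ezh2 and Eed as well. Jarid2 had 11799, 12682 and 12592 CLIP counts against 5861, with enrichments of 1.58, 1.67 and 1.63, mean 1.62 ± 0.04 (SD, n = 3; edgeR adjusted p = 5.7e-14). It was above 89.4% of all transcripts. Mtf2 had 4298, 4438 and 4642 CLIP counts against 3107, with enrichments of 1.04, 1.07 and 1.11, mean 1.07 ± 0.03 (SD, n = 3; edgeR adjusted p = 1.2e-09).

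Rnf2, the one PRC1 ligase in the CLIP table, had 2603, 3196 and 3057 CLIP counts against 1881. Its enrichments of 1.04, 1.32 and 1.23 averaged 1.19 ± 0.14 (SD, n = 3; edgeR adjusted p = 1.3e-08), the widest spread of the 6. In order, Jarid2 exceeded Suz12 by 0.34 ± 0.07, the difference taken within each antibody's library, and their ranges did not overlap. Suz12, Rnf2 and Mtf2 followed, and neighbouring ranges among these 3 overlapped, with differences of 0.09 ± 0.14 between Suz12 and Rnf2 and 0.12 ± 0.12 between Rnf2 and Mtf2. Mtf2 exceeded Ezh2 by 0.52 ± 0.03. Ezh2 exceeded Eed by 0.15 ± 0.05, their ranges lying next to each other at 0.50 to 0.58 and 0.33 to 0.49.

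**Figure D2:**
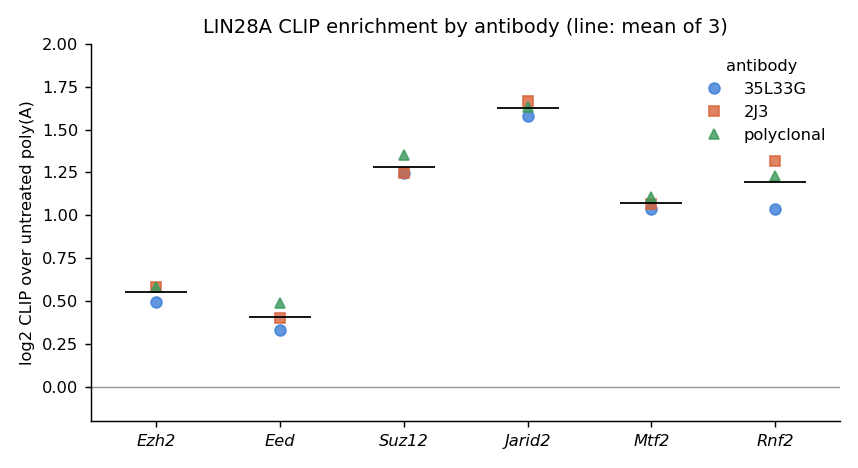
Log2 of CLIP over untreated poly(A) counts, scaled with TMM factors, for the 6 genes with CLIP values. Each point is 1 antibody and the line is the mean of 3: Jarid2 is highest at 1.62, and Ezh2 (0.55) and Eed (0.41) are lowest.

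The wider Polycomb genes did not share one direction, and neither did all transcripts, of which 34.6% were enriched and 33.3% depleted. Among the other PRC2 core genes, Rbbp7, a histone-binding WD40 protein, was enriched at 0.38 ± 0.06 (SD, n = 3; edgeR adjusted p = 0.00584). That is below Eed, whose call did not hold by total counts, and Rbbp7 was not read by that scaling. Ezh1, the paralog of Ezh2, was depleted at −0.86 ± 0.23 (SD, n = 3; edgeR adjusted p = 0.00393), and Rbbp4 was at 0.06 ± 0.04, not called. Of 7 other PRC2 accessory genes 3 had CLIP values. Lcorl was enriched at 1.43 ± 0.45 (edgeR adjusted p = 0.00671). E130012A19Rik, now named Epop, was depleted at −0.99 ± 0.10 (edgeR adjusted p = 5.5e-08), and Aebp2 was at −0.11 ± 0.10, not called.

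Among the Pcgf, Cbx and Phc subunits of PRC1, 10 of 16 listed genes had CLIP values: 1 was enriched, 5 were depleted and 4 were not called, with a median of −0.49. The enriched one was Pcgf5 at 1.10 ± 0.23 (edgeR adjusted p = 0.0192). Cbx7, a chromodomain reader of the PRC2 mark, was lowest at −2.19 ± 0.16 (edgeR adjusted p = 2.8e-10). Of 14 measured partners of variant PRC1, 6 were enriched and 5 depleted, from Mga at 1.48 ± 0.04 (edgeR adjusted p = 1e-12) to Kdm2b, the CpG-island binding protein, at −1.94 ± 0.23 (edgeR adjusted p = 2.7e-07). Of 8 measured members of the H2A deubiquitinase complex and its partners, 1 was enriched and 5 were depleted. They ran from Asxl2 at 0.90 ± 0.11 (edgeR adjusted p = 1.4e-05) to Mbd6 at −1.07 ± 0.23 (edgeR adjusted p = 0.00423). Of 12 enzymes that oppose Polycomb or mark active chromatin, 7 were enriched and 3 depleted, with a median of 0.50. Setd2, a histone H3 methyltransferase of transcribed genes, was highest at 1.73 ± 0.07 (edgeR adjusted p = 3.6e-12), and the chromatin remodeler gene Smarca4 lowest at −0.92 ± 0.02 (edgeR adjusted p = 6e-08). Beside these counts, 34.6% of all 7820 transcripts were enriched and 33.3% depleted. No test of the lists against those shares was made, nor of the 6 against the lists. The list counts and medians were read with TMM factors only. By total counts, which move the median transcript to −0.38, weakly enriched genes may not be called.

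**Figure D3:**
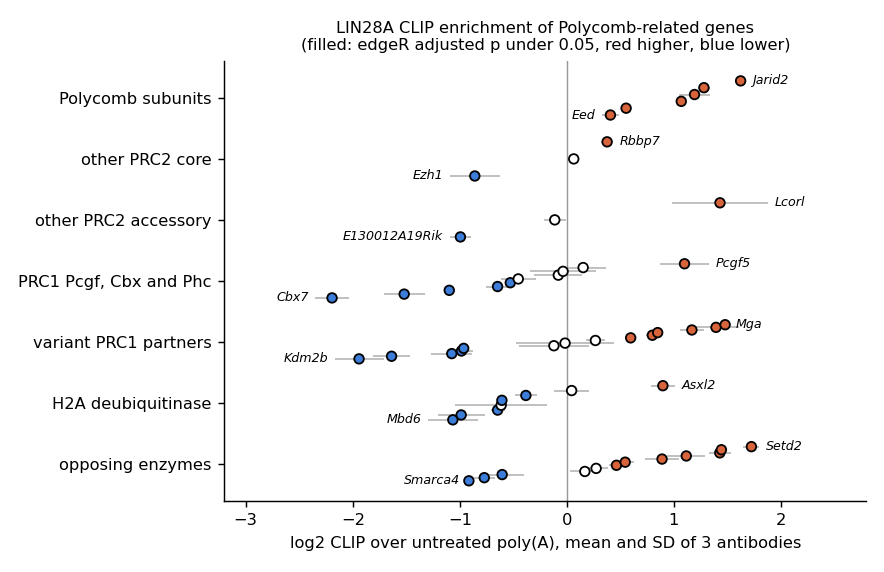
Mean log2 CLIP enrichment over untreated poly(A) for each gene with CLIP values, grouped by role, with the SD of 3 antibodies as a horizontal line. Filled points passed edgeR's test at an adjusted p under 0.05, and the highest and lowest gene of each group are named. All 6 Polycomb subunits lie to the right of 0. Of 10 Pcgf, Cbx and Phc genes 5 are called lower, beside 33.3% of all transcripts.

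Where the CLIP counts fell within the transcripts was described with the coding and 3′ UTR counts, as the share of their sum that lay in the 3′ UTR. The same share in the CLIP table's own poly(A) counts, whose condition is not named, served as the background, with exact Clopper-Pearson intervals. Jarid2 had 12.6% of its poly(A) counts in the 3′ UTR (95% interval 11.8 to 13.6). In CLIP the share was 24.1%, 25.01% and 23.4% with 35L33G, 2J3 and the polyclonal, mean 24.2% ± 0.79 (SD, n = 3). Suz12 had 42.4% (41.0 to 43.8) in poly(A) RNA and 55.2%, 52.9% and 58.7% in CLIP, mean 55.6% ± 2.91 (SD, n = 3). For both, every antibody lay above the poly(A) interval. The shares leave out exon counts that lay outside both regions. With 35L33G these were 796 of 11799 exon counts for Jarid2, and 6 to 21 counts for each of the other genes. In the background poly(A) RNA, Jarid2 had 4653 coding and 673 3′ UTR counts among 5412 exon counts. So a larger part of its CLIP counts than of its poly(A) counts lay outside both regions.

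Mtf2 moved less, from 36.1% in poly(A) RNA (34.4 to 37.8) to 41.9%, 38.2% and 41.1% in CLIP, and the 2J3 interval of 36.8 to 39.7 overlapped the poly(A) interval. Rnf2 had 48.5% (46.1 to 50.8) in poly(A) RNA and 47.7%, 44.3% and 43.4% in CLIP, slightly lower with each antibody and overlapping with 35L33G. Eed went the other way, with 12.4% in poly(A) RNA (11.1 to 13.9) and 5.32%, 4.21% and 6.63% in CLIP, so most of its CLIP counts were coding. Ezh2 gave no common direction. Its 3′ UTR held 57 poly(A) counts and 90, 35 and 121 CLIP counts, or 6.33% against 9.42%, 3.46% and 11.6%.

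On the log2 scale, the CLIP ratio of 3′ UTR to coding counts relative to poly(A) RNA was 1.14 ± 0.06 for Jarid2, 0.77 ± 0.17 for Suz12 and 0.26 ± 0.12 for Mtf2. It was −0.19 ± 0.13 for Rnf2, −1.34 ± 0.34 for Eed and 0.22 ± 0.99 for Ezh2 (SD, n = 3). Of the 6, then, 3 were above poly(A) RNA with all antibodies and 2 below. Over 6021 transcripts with 50 or more poly(A) counts in each region, 46.1% were above with all antibodies and 30.8% below, with a median of 0.23. The shares of the 6 are close to these. Eed, above only 10.9% of the transcripts in this ratio, is the farthest of the 6 from the median.

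**Figure D4:**
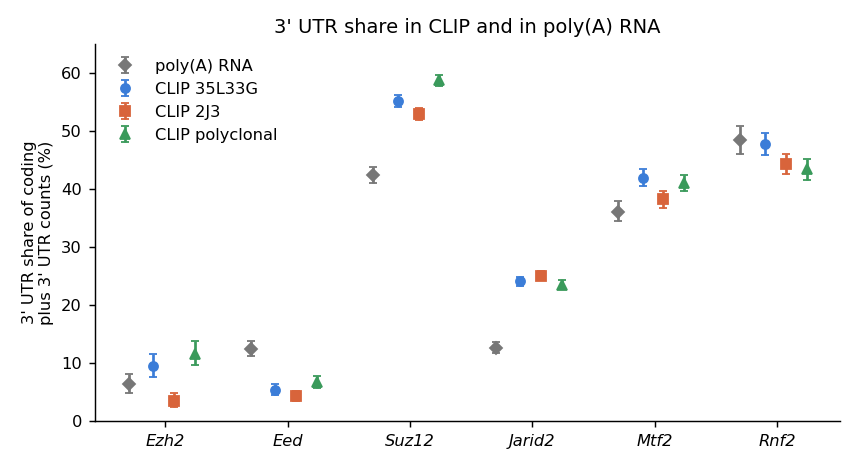
Share of coding plus 3′ UTR counts that lay in the 3′ UTR, in percent, for poly(A) RNA of the CLIP table and for each CLIP antibody, with 95% Clopper-Pearson intervals. Jarid2 and Suz12 lie above poly(A) RNA with every antibody and Eed below.

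The next comparison asks how the mRNAs differed with Lin28a siRNA. None of the 7 reached 1.5-fold against siLuc in either direction. Over 11217 transcripts with 50 counts or more in the siLuc and siLin28a libraries together, 6.53% were at least 1.5-fold lower and 11.4% at least 1.5-fold higher. In such bulk RNA, fewer cells of a type and less RNA per cell cannot be told apart. Ezh2 was the lowest of the 7, at 67.0% of siLuc or −0.58 on the log2 scale (95% Clopper-Pearson interval −0.71 to −0.45), just inside the limit. By the poly(A) counts of the footprint table it was at −0.59, just past it.

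Mtf2 was at −0.30 (−0.38 to −0.23) and Suz12 at −0.28 (−0.33 to −0.22). Eed was at −0.01 (−0.09 to 0.07). Rnf2 was at 0.13 (0.04 to 0.21), Jarid2 at 0.17 (0.12 to 0.23) and Ring1 at 0.32 (−0.10 to 0.75).

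The choice of control carried much of these values. With no Lin28a siRNA involved, siLuc itself was above untreated cells by 0.37 for Ezh2, 0.37 for Suz12, 0.36 for Rnf2, 0.25 for Mtf2 and 0.16 for Eed. It was below untreated cells by −0.10 for Jarid2 and −0.39 for Ring1, the latter with an interval that includes 0 (−0.82 to 0.02). Against untreated cells, siLin28a was at −0.21 for Ezh2 (−0.34 to −0.08), −0.05 for Mtf2 (−0.13 to 0.02) and 0.09 for Suz12 (0.04 to 0.15). Suz12 and Mtf2 were thus closer to the untreated level than to siLuc. Rnf2 was at 0.49 (0.40 to 0.57), the largest difference of the 7 from untreated cells. These comparisons share libraries, and none has a replicate.

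Footprints were lower for most of the genes. Ezh2 had 420 footprint counts with siLuc and 167 with siLin28a, which left 50.4% of the siLuc level after scaling by library total, or −0.99 on the log2 scale (95% Clopper-Pearson interval −1.26 to −0.73). Eed had 1458 and 674 counts, at −0.77 (−0.91 to −0.64). Mtf2 had 883 and 454 counts, at −0.62 (−0.79 to −0.45). These 3 of 6 were at least 1.5-fold lower and none was 1.5-fold higher.

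Over 7799 transcripts 27.2% were at least 1.5-fold lower and 13.0% at least 1.5-fold higher, since by total counts the median transcript itself lay at −0.23. Rnf2 had 1661 and 932 counts, at −0.49 (−0.61 to −0.38), and Suz12 had 815 and 493, at −0.38 (−0.55 to −0.22). Jarid2 was alone in not being lower, with 594 and 482 counts, or 78.5 and 80.6 CPM (counts scaled by library total), at 0.04 (−0.14 to 0.21). With TMM factors, which put the median transcript at 0.00, Ezh2 was the 1 gene still past 1.5-fold, Eed was at −0.54, Mtf2 at −0.39, Rnf2 at −0.26, Suz12 at −0.16 and Jarid2 at 0.27.

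Ribosome density, footprints relative to mRNA, was compared within the footprint table and centred on the median transcript, which lay at −0.22 by total counts. No gene reached 1.5-fold. Over 7799 transcripts 17.0% were at least 1.5-fold lower and 18.6% at least 1.5-fold higher. Eed was lowest at −0.49 (95% counting interval −0.65 to −0.34) and Rnf2 followed at −0.40 (−0.57 to −0.24). Beside their lower footprints, the mRNA interval of Eed included the siLuc level and that of Rnf2 lay above it. Ezh2 at −0.18 (−0.47 to 0.11), Mtf2 at −0.12 (−0.30 to 0.07), Jarid2 at −0.0032 (−0.19 to 0.18) and Suz12 at 0.15 (−0.02 to 0.33) had intervals that include 0. For Ezh2 the lower footprints came with lower mRNA. Not centred, Eed at −0.71 and Rnf2 at −0.62 passed 1.5-fold.

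**Figure D5:**
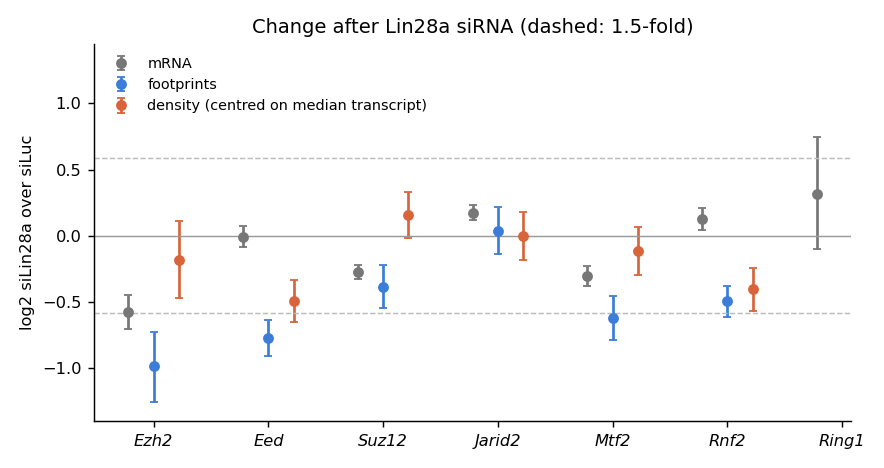
Log2 ratio of siLin28a over siLuc for mRNA, footprints and ribosome density of each gene, with 95% counting intervals; dashed lines mark 1.5-fold. Footprints of Ezh2, Eed and Mtf2 lie past the lower line, and no mRNA or density value does; Ring1 has an mRNA value only.

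Ribosome density in siLuc cells differed far more between the genes than it changed with the siRNA. As log2 of footprints over poly(A) counts, each scaled by library total, Jarid2 was at −2.71 (95% counting interval −2.84 to −2.59), above only 2.55% of 7936 transcripts. Suz12 was at −2.33 (−2.44 to −2.22), above 5.003% of them. The median transcript was at −0.35, with the middle 50% of transcripts between −1.13 and 0.40. Mtf2 was at −1.44 (−1.55 to −1.33), Ezh2 at −1.24 (−1.41 to −1.07) and Eed at −0.47 (−0.57 to −0.37). Rnf2 was highest at 0.61 (0.50 to 0.72). Each neighbouring pair had intervals that did not overlap except Mtf2 and Ezh2.

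The poly(A) tally of the footprint table was 53.1% of the poly(A) table's siLuc count for Rnf2 and 72.3% to 89.4% for the other 5, so the order was also computed by other measures. With the poly(A) table's counts, Rnf2 was at −0.25, Suz12 at −2.74 and Jarid2 at −2.91. With footprints per base of coding sequence over poly(A) table counts per base of exon, Rnf2 was at 1.33, Eed at −0.08, Mtf2 at −0.59, Ezh2 at −1.10, Suz12 at −1.77 and Jarid2 at −2.50. Jarid2 and Suz12 were the lowest of the 6 by each measure, above 2.10% to 3.64% and 4.94% to 6.77% of transcripts. Rnf2 was the highest by each. Mtf2 and Ezh2 changed places per length.

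The transcripts most alike were sought over 4 readouts, namely CLIP enrichment, mRNA change, footprint change and siLuc ribosome density. Each readout was divided by its spread over 4635 transcripts with 200 or more counts, and likeness was the Euclidean distance. Nearest to Suz12 was Zfp106 at a distance of 0.12, then Cenpe at 0.27. Nearest to Eed was Eif3h at 0.12, then Nup153 at 0.26. Ezh2 had Gdi2 at 0.21 and Thoc2 at 0.33, and Rnf2 had Twf1 at 0.34 and Pdcl3 at 0.39. Mtf2 had Sbno1 at 0.35 and Tlk2 at 0.36. Jarid2 was the most isolated, with BC018507 at 0.53 and Dync1h1 at 0.59. Among the 6, the closest pair, Suz12 and Mtf2, was 1.00 apart, and the farthest, Jarid2 and Rnf2, 3.49. The nearest transcripts were picked as the smallest distances among 4635 transcripts. They therefore cannot show whether the 6 are more or less alike than other genes.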

How the data were processed

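The deposited values are whole-number read counts per RefSeq transcript made by the authors, per the file headers, with exon, coding and 3′ UTR counts in the CLIP table. Per the submitters' processing notes, mm9, GSNAP and bedtools were used, with no role or version; the counting rule is not given in the sources used here. Coordinates are as deposited. Left unused were 21 further columns of library values. The members and gene lists were chosen with earlier results of these data known. Named beside the 7 genes are, for each list of Polycomb-related genes, the highest and lowest in CLIP and those past 1.5-fold with siLin28a, and the 2 transcripts nearest each gene. Marker lists are summarised, with Vim, Tubb3 and Thy1 named, and Aebp2 is named outside this rule to complete its list.

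CLIP (3 libraries) was tested against untreated poly(A) (1 library) with edgeR 4.0.16 in R 4.3.3 (quasi-likelihood test, TMM, filterByExpr, which kept all 7820 transcripts), adjusted over all transcripts at 0.05. DESeq2 1.42.0 was an alternative. Log2 ratios used a pseudocount of 0.5 counts. RPKM and CPM were computed here from table totals. Intervals are 95% and cover counting error only, by Poisson, Clopper-Pearson or, for density, a normal approximation on the log scale. The density change with siLin28a needed 50 counts per assay over both conditions. For density in siLuc cells no minimum was set here.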

Additional observations from a re-analysis of the deposited data

How the results depend on the processing

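Members called in CLIP numbered 4 by total counts, 5 with siLuc input, and 6 with DESeq2, with no filter, with the CLIP table's poly(A) column, and with 2 of 3 antibodies. Leaving out 1 antibody gave 2581 to 2677 enriched and 2474 to 2589 depleted transcripts. Total counts gave 1984 enriched and 3605 depleted, or 35.5% of calls enriched against 50.9% with TMM. The 4 calls on Suz12, Jarid2, Mtf2 and Rnf2 passed under every alternative run. Genes with a 3′ UTR shift above poly(A) RNA numbered 3 to 4 with 1 antibody left out; without 2J3, Ezh2 was also above. The number at least 1.5-fold lower went from 0 to 1 for mRNA with the footprint table's poly(A) counts, from 3 to 1 for footprints with TMM factors, and from 0 to 2 for density by total counts without centring. A pseudocount of 5 counts moved no value beyond its interval. The single input and the 1 library per siRNA condition limit all of these values. No paired analysis was possible because the input and each siRNA condition have 1 library, so the groups compared share fewer than 2 replicate numbers.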

Other observations

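Genes known as Polycomb targets were mostly near the limit of detection. Of 33 listed, 25 were among the transcripts measured, 21 of these were below 1 RPKM in untreated cells and 6 had no count there. The exception was Tbx3, a T-box factor that stem cells also use, at 42.2 RPKM. It had 1987 poly(A) counts untreated, 1629 with siLuc and 4232 with siLin28a, a log2 ratio of 1.02 over siLuc (95% Clopper-Pearson interval 0.93 to 1.10). Its footprints were at 0.14 (0.01 to 0.27) and its ribosome density at −0.83 (−1.003 to −0.66). Eomes, a T-box factor of mesendoderm, had 29, 52 and 142 counts, the siLuc library lying above untreated cells as well. Its log2 ratio of siLin28a over siLuc was 1.08 (0.62 to 1.57), and that of siLuc over untreated cells 1.14. Sox1 had 6, 14 and 43 counts, at 1.22 (0.36 to 2.24) over siLuc, with siLuc at 1.47 over untreated cells. Gata2 had 21, 30 and 69 counts, at 0.83 (0.20 to 1.51), with siLuc at 0.81 over untreated cells. Cdkn2a had 35, 20 and 65 counts, at 1.31 (0.60 to 2.14), with siLuc at −0.48. Sox1 and Cdkn2a reached the minimum of 50 counts over siLuc and siLin28a together through the siLin28a library, so no count of target genes is read here. Each condition is 1 library.

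Among the wider Polycomb genes, some differed more with siLin28a than the 7 subunits did. The PRC2 accessory genes Phf19 and Phf1 were at 1.16 (0.89 to 1.44) and 1.28 (0.82 to 1.78) in mRNA against siLuc, from 154 to 443 and from 49 to 154 counts. Kdm6b, a demethylase that removes the PRC2 mark, was at 0.99 (0.86 to 1.13). Pcgf6, a subunit of variant PRC1, was at −0.80 (−0.96 to −0.64) against siLuc and −0.74 against untreated cells. Rbbp7 footprints were at −1.23 (−1.397 to −1.07), and those of Dcaf7 at −1.13 (−1.43 to −0.84). Cbx2 had a ribosome density change of −1.47 (−2.10 to −0.84) from 98 and 41 footprint counts.

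The remaining wider genes past 1.5-fold against siLuc were these. In mRNA, Cbx6 at 0.67, Bmi1 at 0.59, Bcorl1 at 1.22, Asxl3 at 0.66, Foxk1 at 0.59 and Mbd6 at 0.87 were higher, and Pcgf5 at −0.69, Yaf2 at −0.66 and Whsc1 at −0.71 were lower. The counting intervals of Bmi1 (−0.15 to 1.399) and Asxl3 (−0.13 to 1.52) include 0. Bmi1, Bcorl1 and Asxl3 had under 50 counts with siLuc. Against untreated cells, siLin28a was at 0.24 for Cbx6, 0.23 for Foxk1, 0.23 for Mbd6, −0.40 for Pcgf5 and −0.21 for Whsc1, all inside 1.5-fold. It was at 2.37 for Bmi1, from 8 untreated counts, 0.73 for Bcorl1, 0.595 for Asxl3 and −0.73 for Yaf2, all past it. Over 11217 transcripts 6.53% were at least 1.5-fold lower in mRNA against siLuc and 11.4% at least 1.5-fold higher. In footprints, Rbbp4 at −0.61, Cbx2 at −0.91, L3mbtl2 at −0.76, Usp7 at −0.91, Tfdp1 at −0.62, Csnk2a1 at −0.98, Asxl1 at −0.59, Ogt at −0.61, Ash1l at −1.12 and Whsc1 at −0.84 were lower, as was Pcgf6 at −0.80. The interval of Whsc1 (−1.81 to 0.01) includes 0. Footprints of Phc2 at 0.72, Phc3 at 1.03, Mll1 at 0.86 and Wbp7 at 0.92 were higher. All these footprint values are scaled by total counts, by which the median transcript lay at −0.23. By that scaling 27.2% of 7799 transcripts were at least 1.5-fold lower and 13.0% at least 1.5-fold higher. Footprint values with TMM factors are given for the 6 subunits only. These factors move every footprint value up by the same amount, which took Eed from −0.77 to −0.54. Rbbp4, L3mbtl2, Tfdp1, Asxl1 and Ogt were less far below siLuc than Eed, so they lie inside 1.5-fold with these factors. Differences of the other genes may also depend on the scaling. Ribosome density was lower for Phf19 at −0.78, Cbx6 at −0.62, L3mbtl2 at −0.70, Auts2 at −0.71, Dcaf7 at −1.04, Ash1l at −1.03 and Smarca4 at −0.59, and higher for Phc2 at 0.66, Phc3 at 0.81, Mll1 at 1.02 and Wbp7 at 0.69. Over all transcripts 17.0% were at least 1.5-fold lower in density and 18.6% higher. Density was measured for 3 other PRC2 core genes, 3 accessory genes and 9 Pcgf, Cbx and Phc genes. It was also measured for 13 variant PRC1 partners, 8 deubiquitinase genes and 12 opposing enzymes. No test of these lists against those shares was made. Ash1l, Cbx2, Mll1, Phc3 and Whsc1 rest on under 50 footprint counts in at least 1 library.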
